A study of Mus musculus with 13 samples.

Results

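Prostaglandin D and E genes were followed across fibroblasts, induced Sertoli-like cells and native testis cells of the mouse. The set held 9 genes chosen by name: Ptgs1, Ptgs2, Ptgds, Hpgds, Ptges, Hpgd, Ptgdr, Ptger2 and Ptger4. All 9 were on the array, out of 20738 named genes, through 20 features: 10 for Ptgs2, 2 each for Ptges and Hpgd, and 1 for each other gene. A feature is a probe spot, and its value is a log2 signal. The 13 one-colour arrays fell into 7 groups, with 2 arrays in every group except the MEF-derived induced cells, which had 1.

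Mouse embryonic fibroblasts (MEF) carried an empty vector and tail tip fibroblasts (TTF) carried tdTomato, and both were labelled wild type and grown for 3 passages in 10% serum. Induced embryonic Sertoli cells (ieSC) had received Nr5a1, Wt1, Dmrt1, Gata4 and Sox9 and were kept for 6 months in 2% serum with doxycycline, as MEF-ieSC or TTF-ieSC after their source, and are labelled transdifferentiated. The native groups, also wild type and without a transgene, were the uncultured male gonad at 14.5 dpc (days post coitum), immature Sertoli cells at 19 dpc after 3 days in 10% serum, and mature Sertoli cells from mice aged 8 weeks after 7 days in 10% serum. Age is not given for the fibroblast donors. The factors, the time in culture and the serum differ together between ieSC and fibroblasts and cannot be told apart. They also differ together between ieSC and the cultured Sertoli cells, and age and culture differ together among the native groups. These cannot be told apart either. How many animals, cultures or clones stand behind the arrays is not given, so errors and p-values reflect array-to-array spread that may be purely technical.

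Prostaglandins are lipid signals made from arachidonic acid, which phospholipases such as cytosolic phospholipase A2 (Pla2g4a) release from membranes. The cyclooxygenases Ptgs1 and Ptgs2 turn it into prostaglandin H2. From this common precursor, Ptgds and Hpgds, which are unrelated proteins with the same reaction, make prostaglandin D2, and Ptges makes prostaglandin E2. Ptgdr is a receptor for D2, Ptger2 and Ptger4 are receptors for E2, and Hpgd begins the breakdown of prostaglandins. In the fetal testis Ptgds is made by Sertoli cells, where prostaglandin D2 is known to act in a loop with Sox9.

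The labels were set against markers fixed for each cell type. Of 10 Sertoli cell markers, 10 were above the array median of 7.488 on every array in the gonad and in immature Sertoli cells, 9 in mature Sertoli cells, and 8 in both ieSC types, where Amh and Aard were not. The fibroblasts also had 7 (MEF) and 5 (TTF) of these markers above it. Inhbb was lower in the ieSC (10.39 in TTF-ieSC and 10.37 in MEF-ieSC) than in TTF (15.92) and MEF (13.70), and so was Sox9. Cldn11 was 8.09 in TTF-ieSC and 8.39 in MEF-ieSC, against 15.47 in immature Sertoli cells. Rhox5 (8.53 and 8.36) lay below MEF (10.62) and above TTF (7.71). Dhh, Krt18, Wt1 and Gata1 were higher in both ieSC types than in either fibroblast. Of 6 fibroblast markers, 3 were above the array median in both ieSC types and 6 in every other group. The 6 spermatid markers were all above it in mature Sertoli cells and 0 were in the gonad, and the 6 germ cell markers were all above it in the gonad. Of the germ cell markers, 4 were also above it in immature and 3 in mature Sertoli cells, where Mael measured 13.65 and 14.00 and Dazl 13.02 and 10.18, and 1 was in each fibroblast and ieSC group. Over 25285 features, the root mean square difference within a pair of replicate arrays was 0.176 to 0.317. Since the deposited table marks no detection, a value under the array median is called dim here, and a difference from a dim value rests on a background that is not known.

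The stretches upstream of the start sites are shown for the 4 enzymes on which the results turn: both cyclooxygenases, which went opposite ways in ieSC, Ptgds, which rose most, and Ptges, whose 2 features disagreed. Each is the 250 bases before the RefSeq start in GRCm38.p6, written 5′ to 3′ on the gene's strand. They lie at chr2:36230176-36230425, plus strand (Ptgs1), chr1:150099781-150100030, plus strand (Ptgs2), chr2:25469750-25469999, minus strand (Ptgds) and chr2:30903298-30903547, minus strand (Ptges). Capitals mark the only match in these 4 to a motif of the 5 induction factors.

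Ptgs1: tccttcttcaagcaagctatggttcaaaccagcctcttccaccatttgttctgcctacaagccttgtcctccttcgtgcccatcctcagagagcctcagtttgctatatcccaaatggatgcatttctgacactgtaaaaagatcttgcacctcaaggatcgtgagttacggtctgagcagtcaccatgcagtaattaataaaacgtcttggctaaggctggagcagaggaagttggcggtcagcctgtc

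Ptgs2: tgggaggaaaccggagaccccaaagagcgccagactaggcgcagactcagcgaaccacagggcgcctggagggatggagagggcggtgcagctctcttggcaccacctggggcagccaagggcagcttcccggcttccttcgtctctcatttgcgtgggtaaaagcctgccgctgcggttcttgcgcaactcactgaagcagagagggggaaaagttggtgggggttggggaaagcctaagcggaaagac

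Ptgds: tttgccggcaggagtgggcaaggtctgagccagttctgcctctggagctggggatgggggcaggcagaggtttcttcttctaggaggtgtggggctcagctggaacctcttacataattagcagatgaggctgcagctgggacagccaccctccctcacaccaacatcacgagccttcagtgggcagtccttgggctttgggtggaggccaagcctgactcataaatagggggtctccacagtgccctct

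Ptges: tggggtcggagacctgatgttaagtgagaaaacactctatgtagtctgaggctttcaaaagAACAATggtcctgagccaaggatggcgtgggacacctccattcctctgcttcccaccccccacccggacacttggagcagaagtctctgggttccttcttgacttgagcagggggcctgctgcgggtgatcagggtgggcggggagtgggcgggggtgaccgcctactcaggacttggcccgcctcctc

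All 9 members had a promoter entry. The motifs searched on both strands were AACAAT for Sox9, AAGGTCA for Nr5a1, AGATAA for Gata4, GCGTGGGNG for Wt1 and ACATTGT for Dmrt1; the reverse of the Dmrt1 motif can overlap the Sox9 motif by 5 letters. Ptges held the Sox9 motif 189 to 184 bases before its start. Ptger2 held overlapping Sox9 and Dmrt1 matches between 93 and 86 bases before its start, and Hpgd held a Dmrt1 match 91 to 85 bases before its own. The windows of Ptgs1, Ptgs2, Ptgds, Hpgds, Ptgdr and Ptger4 held none of the 5 motifs. Of 27025 promoters of the same length, 9.65% held the Sox9 motif, 4.05% the Nr5a1 motif, 10.3% the Gata4 motif, 1.61% the Wt1 motif and 2.58% the Dmrt1 motif. The windows also differed in CpG content, with 13 CpG in Ptgs2, 8 in Ptges, 5 in Ptgs1 and 2 in Ptgds, beside a median of 6 over all promoters.

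The 2 cyclooxygenases changed in opposite directions in the induced cells. Ptgs1, the cyclooxygenase made constitutively in many tissues, measured 15.14 and 15.24 on the TTF-ieSC arrays and 15.15 on the MEF-ieSC array. It measured 14.02 and 14.16 in TTF and 12.30 and 12.38 in MEF. Every ieSC array was therefore above every fibroblast array, by 1.10 ± 0.10 for TTF-ieSC against TTF (log2 difference ± SE, adjusted p = 7.53e-06) and by 2.81 ± 0.12 for MEF-ieSC against MEF (adjusted p = 8.66e-08). The ieSC types reached the same level from different starts: they differed from each other by 0.04 ± 0.12 (adjusted p = 0.874), while TTF had been above MEF by 1.75 ± 0.10.

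Ptgs1 was lower in all native groups than in either fibroblast. The values were 10.61 and 10.65 in the gonad, 10.27 and 10.53 in immature Sertoli cells and 11.44 and 11.55 in mature Sertoli cells. The level in TTF-ieSC was 27.7-fold that in immature Sertoli cells (4.79 ± 0.10) and the level in MEF-ieSC was 27.0-fold (4.75 ± 0.12), and only 2.09% and 2.35% of all tested genes differed by more in these comparisons. In the order of the 7 groups, TTF-ieSC and MEF-ieSC were not called as different, nor were the gonad and immature Sertoli cells (0.23, adjusted p = 0.0550). Taken as immature minus gonad, that last difference was -0.36 without immature Sertoli replicate 2 (adjusted p = 0.00871) and -0.10 without immature Sertoli replicate 1 (adjusted p = 0.337), and mature cells were above immature ones by 1.10 ± 0.10.

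Ptgs2, the cyclooxygenase induced by growth factors and inflammation, fell steeply in the induced cells and was dim in the gonad. Its brightest feature measured 8.23 and 8.24 in TTF-ieSC and 8.34 in MEF-ieSC, against 14.55 and 14.48 in TTF and 13.79 and 13.74 in MEF. It fell by 6.28 ± 0.09 in TTF-ieSC (adjusted p = 7.26e-11) and by 5.43 ± 0.11 in MEF-ieSC (adjusted p = 1.06e-09). The gonad was lower still, at 6.06 and 6.19, under the array median on both arrays.

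Cultured Sertoli cells lay below the fibroblasts and far above the ieSC in Ptgs2, with 12.73 and 12.48 in immature and 13.07 and 12.97 in mature cells. Immature Sertoli cells were thus 89.2-fold above the uncultured gonad (6.48 ± 0.09), the 7th largest rise of 16658 tested genes, though from a dim value. All cells grown in 10% serum had a level of 12.48 or more, the ieSC in 2% serum lay between 8.23 and 8.34, and the uncultured tissue lay at 6.19 or less. Serum, culture and cell type cannot be told apart in this order. The summed signal of 6 smooth muscle markers was also lower in the ieSC and the gonad than elsewhere, but in another order. Its log2 was 14.4 in TTF-ieSC, 15.01 in MEF-ieSC and 16.3 to 16.4 in the gonad, where Ptgs2 was lowest. In the other 4 groups it was 18.6 to 20.0, with TTF, highest in Ptgs2, at 18.6 to 18.7. All 6 markers were above the array median on every array outside the ieSC, and 5 were in both ieSC types. The part of such cells in the Ptgs2 values was not tested. In bulk samples fewer cells of a type and less RNA per cell cannot be told apart.

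The 10 Ptgs2 features measured the gene 10 times on each array. On the arrays of cultured fibroblasts and Sertoli cells they spanned 0.17 to 0.51 on the log2 scale, and on the dim gonad arrays 0.93 and 1.11. Over them the change ranged from -6.30 to -6.03 in TTF-ieSC against TTF, and in MEF-ieSC against MEF its median was -5.14. The ieSC types did not differ by the brightest feature (-0.10 ± 0.11, adjusted p = 0.599) but did by 2 of the 9 others (-0.43 and -0.49). The small rise from immature to mature Sertoli cells, 0.41 ± 0.09 (adjusted p = 0.00316), ranged from 0.25 to 0.45 and did not pass with 2 of the 9 other features (0.37 and 0.36, adjusted p = 0.147 and 0.176).

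**Figure D1:**
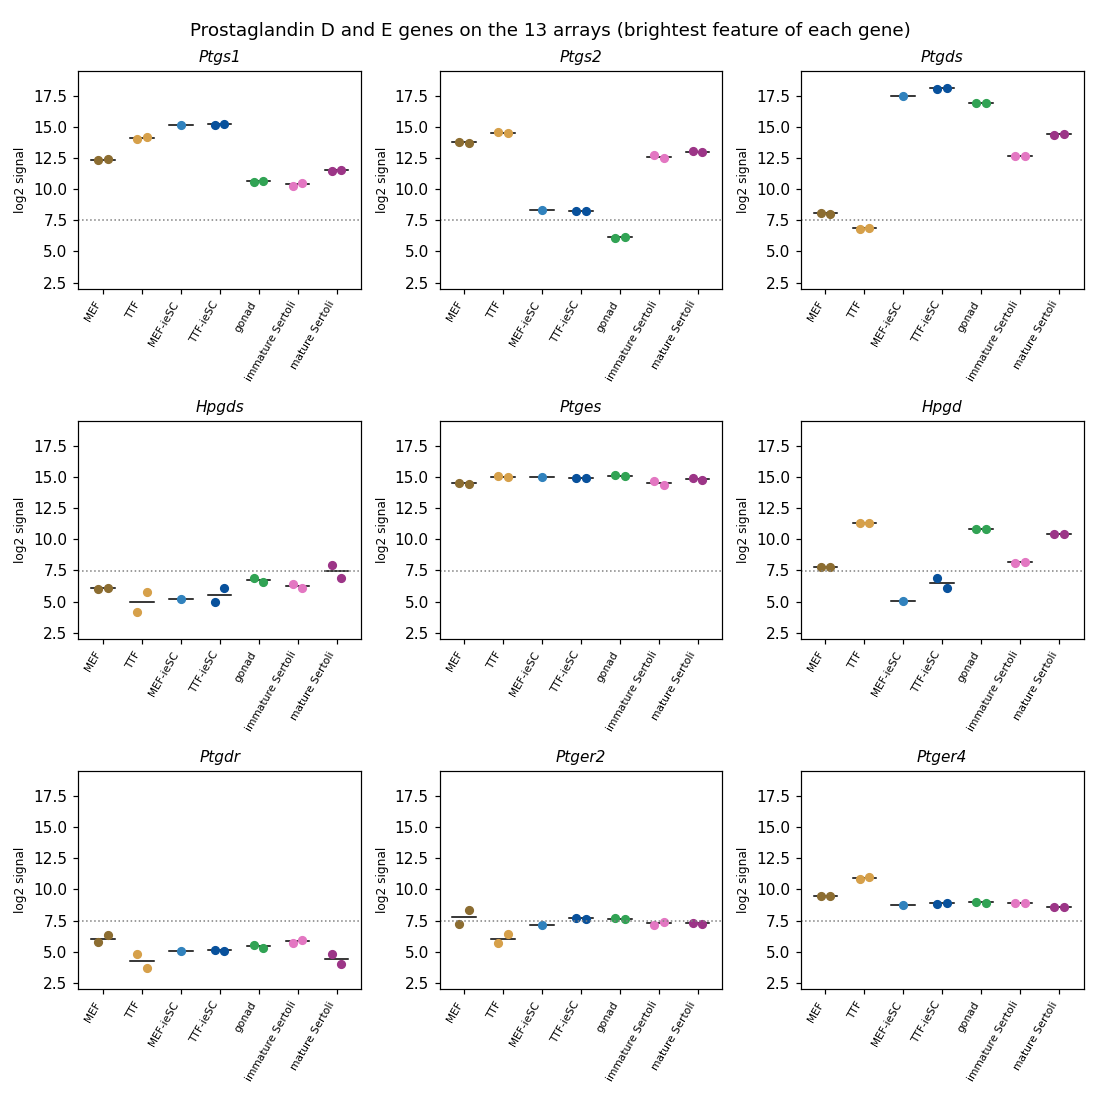
Log2 signal of the 9 genes (y axis) on each array, by group (x axis); points are arrays, bars are group means and the dotted line is the array median of 7.488. Ptgds is highest and Ptgs2 low in both ieSC types and the gonad, Ptgs1 is highest in the ieSC types, and Hpgds and Ptgdr lie near or under the dotted line in every group.

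Ptgds, the lipocalin-type synthase of prostaglandin D2, separated fibroblasts from every Sertoli-related group. It measured 18.03 and 18.14 in TTF-ieSC and 17.50 in MEF-ieSC, close to the array maximum of 18.872. The gonad followed at 16.88 and 16.90, then mature Sertoli cells at 14.38 and 14.43 and immature Sertoli cells at 12.65 on both arrays. MEF had 8.11 and 7.99 and TTF 6.82 and 6.88. No 2 groups overlapped, and all 6 neighbours in this order were called as different. The single MEF-ieSC array has no spread of its own, and the fit took that of the other groups.

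The rise of Ptgds in TTF-ieSC against TTF was the largest of 16658 tested genes, from a level that was dim in TTF, and the rise in MEF-ieSC against MEF ranked 4th. The induced cells lay above every native group. Of these, the gonad is a mixed tissue, with all 4 Leydig, 6 germ cell and 6 endothelial markers above the array median. Its level need not be that of its Sertoli cells. TTF-ieSC lay above the gonad by 1.19 ± 0.06 and MEF-ieSC by 0.61 ± 0.08 (adjusted p = 2.21e-07 and 9.46e-05). Against cultured immature Sertoli cells the excess was 43.2-fold in TTF-ieSC (5.43 ± 0.06) and 28.8-fold in MEF-ieSC (4.85 ± 0.08). TTF-ieSC exceeded MEF-ieSC by 0.59 ± 0.08 (adjusted p = 0.00162), but with only the 3 ieSC arrays in the fit this was not called (adjusted p = 0.0916). The comparisons with immature Sertoli cells share their control arrays.

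Among native cells, Ptgds was lower in the cultured Sertoli cells than in the gonad, with a difference of -4.24 ± 0.06 for immature Sertoli cells, and mature ones were above the immature by 1.75 ± 0.06. Markers of other cells moved with it in part: the summed log2 signal of 4 Leydig cell markers was 18.1 in the gonad and 14.5 to 14.7 in the Sertoli cell groups. The same sum was 11.1 to 11.4 over both ieSC types, where Ptgds was highest, and 11.4 to 11.9 in the fibroblasts. For 6 germ cell markers the summed log2 signal was 16.9 in the gonad, 14.6 to 14.7 in immature and 14.3 in mature Sertoli cells. It was 9.05 to 9.47 over both ieSC types and 8.65 to 10.25 in the fibroblasts. The summed log2 signal of 6 endothelial markers was 15.8 to 15.9 in the gonad, 15.967 to 15.998 over both ieSC types and 13.6 to 14.4 in all other groups. In the ieSC that sum came mostly from Egfl7 (15.89 in TTF-ieSC and 15.88 in MEF-ieSC), while Cdh5, Tek and Emcn were under the array median there and above it in TTF. All 6 were above it in the gonad and TTF, 5 in both Sertoli cultures, 4 in MEF and 3 in both ieSC types. Their part in the Ptgds values was not tested. Over the same arrays Sox9, the factor linked to Ptgds in the fetal testis, went the other way, with 12.30 in the gonad and 13.47 in immature Sertoli cells (1.17 ± 0.07 higher). Mature Sertoli cells had 12.79, MEF 10.88 and TTF 11.31. In the ieSC, where Ptgds was highest, the Sox9 feature was lowest, at 9.79 in TTF-ieSC and 9.12 in MEF-ieSC. Nr5a1, which is also known to bind near Ptgds, was 15.73 in the gonad, 13.89 in immature and 14.29 in mature Sertoli cells, and between 8.28 and 9.37 in the fibroblast and ieSC groups. Whether these features read the introduced factors or the endogenous genes is not given.

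Hpgds, the haematopoietic synthase of prostaglandin D2, found mainly in mast cells and some other immune cells, was dim. It passed the array median on 1 of 13 arrays, mature Sertoli replicate 1 at 7.97, with 6.87 on the other array of that group. The remaining arrays lay between 4.19 (TTF) and 6.91 (gonad). The gene was not tested, since a tested gene had to be above the median on 2 arrays. Of 10 mast cell markers, 6 were above the median on every array in the gonad, 7 in immature and 4 in mature Sertoli cells. In MEF and TTF 4 of these markers were, and in both ieSC types 3 of them. Their summed log2 signal was highest in the gonad (13.6 to 13.8) and in immature Sertoli cells (13.6), and it was 11.97 to 11.99 in the mature cells that had the highest Hpgds. Kit (12.83 in the gonad and 12.79 in immature Sertoli cells) and Hdc (11.66 and 11.05) were the brightest of these markers there. Fcer1a and Ms4a2 were dim in every group, and Gata2 and Tpsb2 were above the median in every group, so the sum and the counts need not stand for mast cells. Of 12 macrophage markers, 11 were above the median in mature Sertoli cells, 10 in immature ones, 9 in the gonad and 2 in both ieSC types. MEF had 8 of them above it and TTF 4. The part of such cells in the Hpgds values was not tested.

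Ptges, the inducible microsomal synthase of prostaglandin E2, gave opposite answers from its 2 features. The brighter feature hardly varied, with values from 14.36 (immature Sertoli replicate 2) to 15.14 (gonad replicate 1) over all 13 arrays. By this feature TTF-ieSC and TTF differed by -0.09 ± 0.09 (adjusted p = 0.421) and MEF-ieSC was above MEF by 0.51 ± 0.11 (adjusted p = 0.00362). In the order of its 7 group means only mature and immature Sertoli cells were neighbours that differed (0.34 ± 0.09, adjusted p = 0.00947). That did not pass without mature Sertoli replicate 1 (0.28, adjusted p = 0.0663) and was 0.21 without immature Sertoli replicate 2.

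The other feature of Ptges changed strongly. It measured 6.19 and 6.57 in TTF-ieSC and 6.79 in MEF-ieSC, all dim, against 11.75 and 11.73 in TTF and 10.65 and 10.60 in MEF. The gonad had 8.83 and 8.84, immature Sertoli cells 10.69 and 10.89, and both mature Sertoli arrays 11.43. By this feature Ptges fell by 5.37 ± 0.11 in TTF-ieSC (adjusted p = 7.00e-10) and changed by -3.83 ± 0.14 in MEF-ieSC (adjusted p = 3.76e-08). The gonad lay between the ieSC and the other groups and overlapped with neither.

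Both features carry the same RefSeq transcript accession in the platform annotation, and their probe sequences were not used here, so which of them reads Ptges better was not tested. The direction of every Ptges comparison between ieSC and immature Sertoli cells depends on the feature: 0.45 ± 0.09 or -4.41 ± 0.11 for TTF-ieSC and 0.50 ± 0.11 or -4.00 ± 0.14 for MEF-ieSC. Immature Sertoli cells against the gonad gave -0.59 ± 0.09 or 1.95 ± 0.11. TTF was above MEF by both features (0.54 ± 0.09 and 1.12 ± 0.11), and mature Sertoli cells were above immature ones by both (0.34 and 0.64). The upstream window printed above, with its Sox9 motif, is the same for both features.

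**Figure D2:**
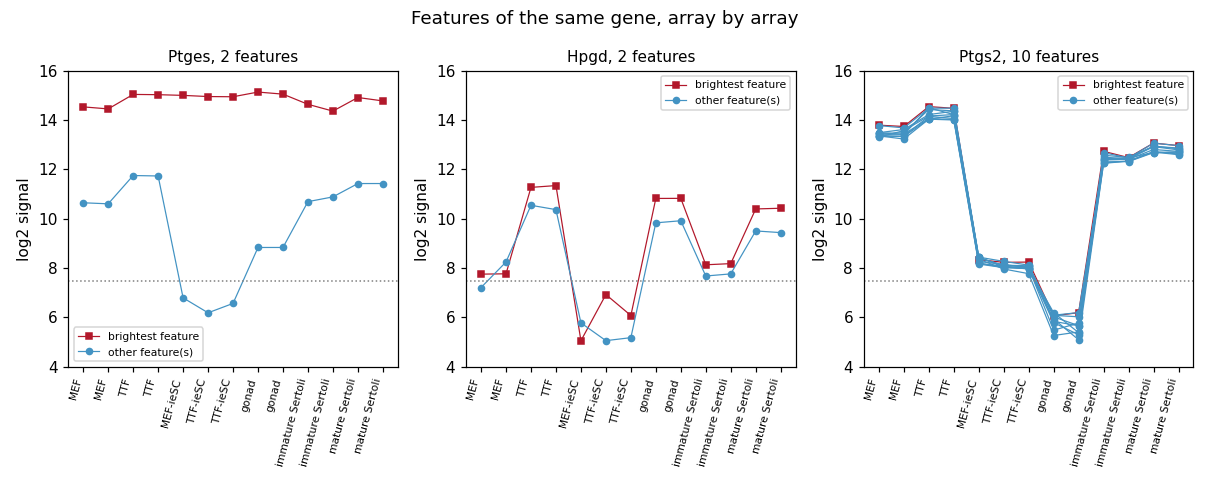
Log2 signal (y axis) of each feature of Ptges, Hpgd and Ptgs2 on the 13 arrays in group order (x axis); squares are the brightest feature of a gene, circles its other features, and the dotted line is the array median. The Ptges features part in the TTF-ieSC arrays, 14.95 against 6.19 and 6.57, while the 10 Ptgs2 features run together.

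Hpgd, the dehydrogenase that starts prostaglandin breakdown, was lowest in the induced cells. Its brighter feature measured 6.93 and 6.08 in TTF-ieSC and 5.05 in MEF-ieSC, all under the array median. TTF had 11.27 and 11.34, while MEF had only 7.75 and 7.77. It fell by 4.81 ± 0.22 in TTF-ieSC (adjusted p = 8.61e-08) and by 2.71 ± 0.26 in MEF-ieSC (adjusted p = 2.38e-05).

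Among the native groups, immature Sertoli cells had the least Hpgd. The gonad had 10.82 and 10.83, mature Sertoli cells 10.40 and 10.43, and immature Sertoli cells 8.13 and 8.18. Mature cells exceeded immature ones by 2.25 ± 0.22 (4.77-fold, adjusted p = 2.48e-05). Next to each other in the order, TTF and the gonad did not differ beyond their spread, nor did the gonad and mature cells (adjusted p = 0.0655 and 0.108). TTF did exceed mature cells, by 0.90 ± 0.22 (adjusted p = 0.00476). TTF-ieSC were below immature Sertoli cells by -1.66 ± 0.22 and MEF-ieSC by -3.10 ± 0.26, and by the other feature by -2.60 and -1.94. The features differed on the order of the ieSC types: TTF-ieSC minus MEF-ieSC was 1.45 ± 0.26 (adjusted p = 0.00864) by one and -0.66 ± 0.33 (adjusted p = 0.234) by the other. The first was not called with only the 3 ieSC arrays in the fit (adjusted p = 0.183). Around the brighter feature, 120 neighbouring features on the array grid had a median of -0.37 on the MEF-ieSC array against the TTF-ieSC arrays, and around the other 0.02. The part of this in the difference was not tested.

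Of the receptors, Ptger4 fell on induction, Ptger2 lay near the array median and Ptgdr was dim throughout. Ptger4, a receptor for prostaglandin E2 that raises cyclic AMP, was highest in TTF at 10.84 and 11.04, followed by MEF at 9.43 and 9.44. The other 5 groups lay together between 8.58 and 9.01. It fell by 2.05 ± 0.07 in TTF-ieSC (adjusted p = 1.16e-08) and by 0.65 ± 0.08 in MEF-ieSC (adjusted p = 0.000139). Both ieSC types then differed from immature Sertoli cells by less than could be called (-0.03 ± 0.07 and -0.14 ± 0.08, adjusted p = 0.670 and 0.174).

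Ptger2, which also raises cyclic AMP, measured 7.74 and 7.63 in TTF-ieSC against 5.68 and 6.42 in TTF, a rise of 1.64 ± 0.34 (adjusted p = 0.00234) from dim values. The MEF arrays lay far apart, at 7.24 and 8.38, with 7.17 on the MEF-ieSC array (-0.64 ± 0.42, adjusted p = 0.213). Leaving out MEF replicate 1 made that difference -1.21, which passed (adjusted p = 0.00970). Leaving out the other MEF array instead made it -0.0699 (adjusted p = 0.854). In the fit over all arrays, the neighbours in the order of levels that differed were TTF and MEF-ieSC (adjusted p = 0.0413). The gonad and immature Sertoli cells, also neighbours, differed with only their 4 arrays in the fit (-0.35, adjusted p = 0.0213) and did not in that over all arrays (adjusted p = 0.385).

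Ptgdr, the receptor for prostaglandin D2 that raises cyclic AMP, was under the array median on all 13 arrays and was not tested. Its values ran from 3.73 (TTF replicate 2) to 6.37 (MEF replicate 2). The TTF-ieSC arrays had 5.15 and 5.06, the MEF-ieSC array 5.04, the gonad 5.55 and 5.31, and immature Sertoli cells 5.69 and 5.97.

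Of the 9 members, 7 were tested. In TTF-ieSC against TTF 6 of them were called, 3 higher (Ptgds, Ptgs1, Ptger2) and 3 lower (Ptgs2, Ptger4, Hpgd), beside 74.7% of all 16658 tested genes (39.5% higher and 35.2% lower). In MEF-ieSC against MEF 6 were called, 3 higher (Ptgds, Ptgs1, Ptges by its brighter feature) and 3 lower (Ptgs2, Ptger4, Hpgd). Of all genes, 67.9% were called there (34.3% higher and 33.6% lower). So large a share of genes passed that a call alone says little, and the size of a change says more: 1.45% of genes changed by more than Ptgs2 in TTF-ieSC and 1.85% in MEF-ieSC. Against immature Sertoli cells 5 of 7 members were called in TTF-ieSC (76.8% of all genes, 37.8% higher and 39% lower) and 5 in MEF-ieSC (70.6%, 34.4% higher and 36.2% lower). In both, Ptgds, Ptgs1 and Ptges by its brighter feature were higher and Ptgs2 and Hpgd were lower in the ieSC.

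Between native groups, 4 of 7 members were called in immature Sertoli cells against the gonad (70.5% of all genes, 32.6% higher and 37.9% lower), with Ptgs2 higher and Ptgds, Hpgd and Ptges, by its brighter feature, lower. From immature to mature Sertoli cells 6 were called (68.5%, 28.9% higher and 39.6% lower), 5 higher and Ptger4 lower (-0.34 ± 0.07). TTF and MEF differed in all 7 (66.6%), with Hpgd at 3.55 ± 0.22 the largest. TTF-ieSC and MEF-ieSC differed in 2, Ptgds and Hpgd (14.3%).

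**Figure D3:**
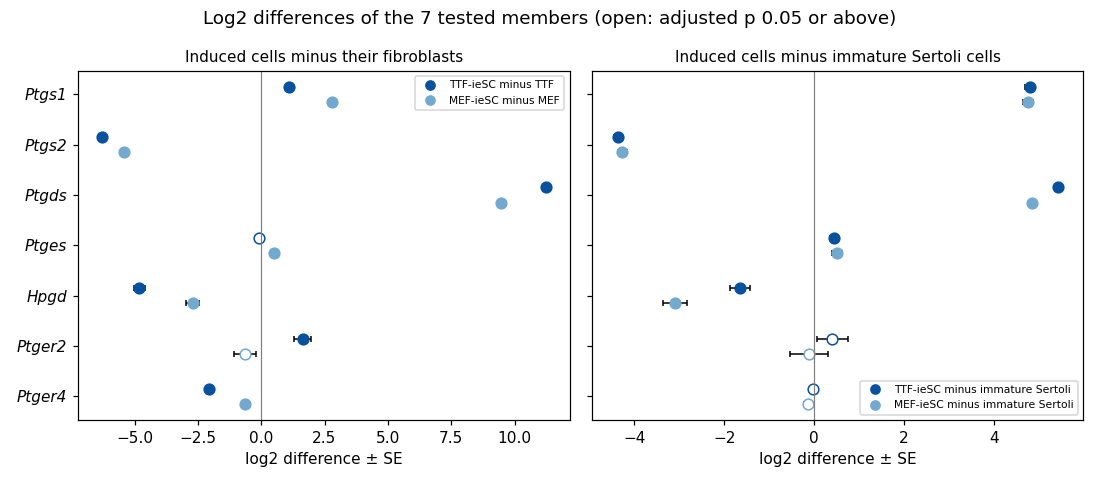
Log2 difference (x axis) of the 7 tested genes between induced cells and their fibroblasts (left) and between induced cells and immature Sertoli cells (right); points are fitted differences, bars standard errors, and open points did not pass. Ptgds lies farthest to the right (11.23 and 9.45 on the left) and Ptgs2 farthest to the left (-6.28 and -5.43), while Ptger4 lies near 0 on the right (-0.03 and -0.14).

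More genes of the wider pathway fell than rose in the induced cells. A list of 28 other prostanoid and leukotriene genes had 27 on the array and 25 tested. In TTF-ieSC against TTF 16 were lower and 4 higher, with a median of -1.86 beside 0.06 over all genes, of which 35.2% were lower and 39.5% higher. In MEF-ieSC against MEF 14 were lower and 9 higher (33.6% and 34.3% of all genes), with a median of -0.91 beside 0.01.

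Among the phospholipases that release arachidonic acid, Pla2g4a and Pla2g2e fell in both inductions and Pla2g5 fell in 1 of them. Pla2g4a, cytosolic phospholipase A2, measured 10.00 to 10.08 in TTF-ieSC and 10.20 in MEF-ieSC against 14.30 to 14.32 in TTF and 13.83 to 13.92 in MEF, a change of -4.27 ± 0.06 and -3.67 ± 0.07. No native group was as low, the gonad having 12.44 and 12.47. The secreted phospholipase Pla2g2e fell by 5.84 ± 0.11 in TTF-ieSC, from 12.58 to a dim 6.74, and changed by -2.82 ± 0.13 in MEF-ieSC. Pla2g5, another secreted phospholipase, changed by -2.50 ± 0.13 in TTF-ieSC, from 8.19 to a dim 5.69, and rose by 1.64 ± 0.17 in MEF-ieSC, between dim values of 5.34 and 6.98. Ptgis, which makes prostacyclin, fell by 2.97 ± 0.06 in TTF-ieSC and by 2.22 ± 0.08 in MEF-ieSC.

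Receptors for other prostanoids fell as well. Ptgfr, the receptor for prostaglandin F2α, changed by -6.62 ± 0.09 in TTF-ieSC and -4.24 ± 0.11 in MEF-ieSC, to 6.64 and 5.89, both dim. Ptgir, the prostacyclin receptor, changed by -4.41 ± 0.12 and -2.05 ± 0.14. Ptgfrn, a membrane protein that binds the Ptgfr receptor, fell most from MEF (-4.41 ± 0.07), and Tbxa2r, the thromboxane receptor, fell by 3.84 ± 0.07 and 3.30 ± 0.09.

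Other pathway genes rose. Ptgdr2, the other receptor for prostaglandin D2, was near the array median throughout. It went from 7.04 to 8.14 in TTF-ieSC (1.10 ± 0.12) and from 7.12 to 8.14 in MEF-ieSC (1.02 ± 0.15), and it was under 7 on average in all 3 native groups. Prxl2b, which makes prostaglandin F2α from the common precursor, rose by 0.83 ± 0.09 in TTF-ieSC and from 13.75 to 15.25 in MEF-ieSC. Slco2a1, the prostaglandin uptake transporter, went opposite ways, by -2.09 ± 0.06 from TTF at 15.73 and by 2.33 ± 0.08 from MEF at 12.40. Alox12, a lipoxygenase, rose from MEF by 1.93 ± 0.08.

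Against immature Sertoli cells, TTF-ieSC had 14 of the 25 genes lower and 8 higher (39% and 37.8% of all genes) and MEF-ieSC 13 lower and 8 higher (36.2% and 34.4%). The largest deficits in TTF-ieSC were those of Pla2g5 (-4.94 ± 0.13), Ptgis (-4.06 ± 0.06) and the organic anion transporter Slco3a1 (-3.38 ± 0.09). In MEF-ieSC they were those of Slco3a1 (-3.97 ± 0.11), Pla2g5 (-3.65 ± 0.17) and Ptgfrn (-3.09 ± 0.07). Prxl2b (1.84 ± 0.09 and 2.02 ± 0.11), Ltc4s, the leukotriene C4 synthase (1.35 ± 0.07 and 1.45 ± 0.09), and Ptgdr2 (1.33 in both) were the largest excesses.

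In native cells the list was split. Immature Sertoli cells against the gonad had 9 higher and 8 lower (32.6% and 37.9% of all genes), with Slco2a1 up by 4.56 ± 0.06, Slco3a1 by 2.18 ± 0.09 and Ptgis by 1.47 ± 0.06. Tbxa2r (-2.93 ± 0.07), Pla2g5 (-2.01 ± 0.13) and Alox12 (-1.17 ± 0.06) were lower. From immature to mature cells 7 were higher and 10 lower (28.9% and 39.6%). Tbxa2r rose by 1.87 ± 0.07 and Pla2g2e by 1.22 ± 0.11, and Pla2g5 fell by 1.99 ± 0.13 and Ptgfr by 1.63 ± 0.09. TTF and MEF differed in 21 of the 25 genes (66.6% of all genes), most in Pla2g2e (3.41 ± 0.11), Slco2a1 (3.33 ± 0.06) and Ptgfr (3.13 ± 0.09), all higher in TTF. Between the ieSC types 14.3% of all tested genes were called, beside the following count from the list of 25. TTF-ieSC and MEF-ieSC differed in 10, most in Ptgis (-1.37 ± 0.08), Pla2g5 (-1.29 ± 0.17) and Slco2a1 (-1.08 ± 0.08), and in 0 of them with only the 3 ieSC arrays in a limma fit, where 13 had an unadjusted p under 0.05.

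**Figure D4:**
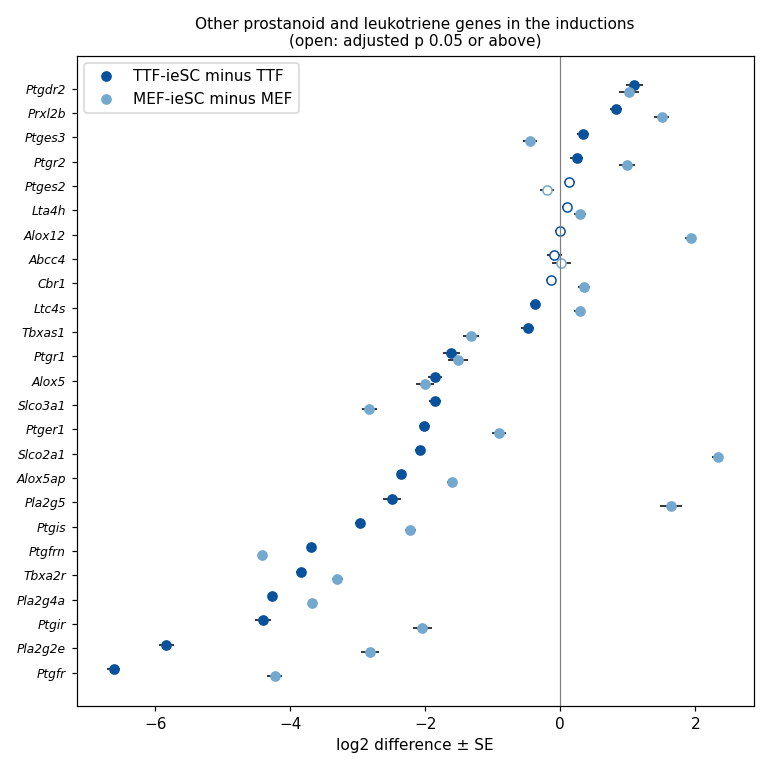
Log2 difference (x axis) of the 25 other prostanoid and leukotriene genes (y axis) in TTF-ieSC against TTF and MEF-ieSC against MEF; bars are standard errors and open points did not pass. Ptgfr lies farthest left for TTF-ieSC (-6.62) and Ptgfrn for MEF-ieSC (-4.41), and Slco2a1 and Pla2g5 lie on opposite sides of 0 in the inductions.

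Genes with the most similar pattern were taken by Pearson's r of the log2 values over the 13 arrays, which share groups and replicates, and are given as a description. For Ptgds they were Cyp2s1 (0.990), Trim10 (0.980), C2cd4d (0.978), Amhr2, the receptor for anti-Müllerian hormone (0.977), and Nlk (0.974). Cyp2s1 ran from 8.04 to 15.21 and Amhr2 from 8.65 to 16.96 on the log2 scale, while Trim10 (6.18 to 8.77), C2cd4d (6.94 to 8.21) and Nlk (10.88 to 12.12) varied little. For Ptgs1 they were the cell cycle gene Ccnd1 (0.989), Mfsd3 (0.988) and Snx32 (0.984), and for Ptgs2 Mtpn (0.988), Rsu1 (0.987) and the hyaluronan receptor Cd44 (0.986). For Hpgd they were Ggt5 (0.990), Abi3 (0.985) and Serpinb1a (0.979), and for Ptger4 Plekhn1 (0.981), Cd55 (0.980) and Rida (0.977). For Ptges, by its brighter feature, they were Plxdc1 (0.924), Oas1b (0.918) and Zfp931 (0.889), and for Ptger2 Glrx2 (0.891), Mboat2 (0.878) and Fermt3 (0.868).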

How the data were processed

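RNA was measured on 1-colour Agilent arrays (Cy3). The deposited table holds log2 signals for 62976 features, brought by the authors to 1 distribution on every array (minimum 0.566, 75th percentile 10.473). The submitters' processing notes name limma without a version or role. No source used here gives the feature extraction, background correction or genome build. The number of arrays limits the precision.

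The 31465 features with 1 symbol were renamed through RefSeq (GRCm38.p6): 29036 matched an accession, 2075 a current symbol and 349 a former one, while 5 kept the file's name. All 20 member features matched by accession. A gene was represented by its feature with the highest mean. Testing covered the 16658 genes whose signal exceeded the array median on 2 or more arrays, 7 members among them. All 13 arrays entered 1 limma fit (lmFit, eBayes; limma 3.58.1, R 4.3.3), with 6 residual degrees of freedom, two-sided contrasts and Benjamini-Hochberg adjustment over all genes tested. Calls required an adjusted p below 0.05. For the lone MEF-ieSC array the fit borrows the spread of the other groups. The fit was also run on simulated data with independent noise. That run cannot give the error rate here, where the array-to-array spread may be purely technical.

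Members, gene lists and tests were chosen with earlier results of these data known. All members were named, with the pathway genes of largest called change (log2 of 1 or more, up to 3 each way) in a comparison, the 5 genes most like Ptgds and 3 for each other tested member (Pearson's r, clone names left out), and Sox9 and Nr5a1; a pathway gene named for one comparison may be given in others. The array-grid check, on an assumed layout, was added after seeing the data. Replicate numbers follow accession order and pair no samples. Marker lists were read as counts above the median and summed signal.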

Additional observations from a re-analysis of the deposited data

Results flagged for a closer look

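The change on induction differed between TTF and MEF, by a test of the difference itself, in all 7 tested members. The share of all genes called by this test is not given here, so the count alone says little. Of all tested genes, 4.95% had a larger difference than Ptger2, 5.9% than Hpgd, 8.57% than Ptgds, 9.35% than Ptgs1 and 13.3% than Ptger4. For Ptgs2 and Ptges these shares were 27% and 40.3%. Taken as TTF-ieSC minus TTF less MEF-ieSC minus MEF, the difference was 1.78 for Ptgds (adjusted p = 1.85e-06), -1.71 for Ptgs1 (adjusted p = 2.92e-05), -0.85 for Ptgs2 (adjusted p = 0.00112) and -0.59 for Ptges (adjusted p = 0.00866). It was 2.27 for Ptger2 (adjusted p = 0.00789), -1.40 for Ptger4 (adjusted p = 1.25e-05) and -2.10 for Hpgd (adjusted p = 0.00102). The other features gave -1.53 for Ptges and -3.39 for Hpgd. By construction this value is the difference between the ieSC types less that between the fibroblasts. TTF and MEF differed in all 7 members (66.6% of all genes) and TTF-ieSC and MEF-ieSC in 2 (14.3%).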

How the results depend on the processing

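Of 63 differences (7 genes, 8 comparisons and the difference between the inductions), 1378 values under other settings were computed; 1350 kept their direction and side of the threshold, 6 were no longer called, 10 were newly called and 12 changed sign. Ptges gave 8 of the sign changes, all between its features. With the mean of both features it was -1.66 in MEF-ieSC against MEF, -1.98 and -1.75 in TTF-ieSC and MEF-ieSC against immature Sertoli cells, and 0.68 in immature Sertoli cells against the gonad; with the other feature alone these were -3.83, -4.41, -4.00 and 1.95. The other feature of Hpgd turned TTF-ieSC minus MEF-ieSC to -0.66. Leaving out 1 array, Ptgs1 in TTF-ieSC minus MEF-ieSC ranged from -0.0125 to 0.0917 and Ptger2 in mature minus immature Sertoli cells from -0.117 to 0.0864, and neither was called. Counts of called members and pathway genes stayed within 1.5 times in every setting run, except in TTF-ieSC against MEF-ieSC. There 2 members and 10 pathway genes were called, 1 member with the mean of features (Hpgd was lost, adjusted p = 0.253), and 0 and 0 in a limma fit on these groups alone, with 2 and 13 at an unadjusted p under 0.05. MEF-ieSC has 1 array, so its comparisons could not be recomputed without it. No paired analysis was possible because the replicate numbers follow accession order and no label pairs arrays. The table holds no detection flags, so a dim value limits every fold against it.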
